A study of Mus musculus with 2 samples.

Results

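Hypoxia-inducible factors (HIFs), their oxygen sensors and a set of their non-glycolytic target genes were examined in mouse pancreatic ductal adenocarcinoma (PDAC) cells kept in medium from fibroblasts. The group was defined by 33 gene symbols. The deposited table, with 21983 gene entries, had a row for 32 of them, and Ak4l matched no row. The cells were of the 14837 line, labelled as mouse PDAC of the C57BL/6 strain. The labels describe 2 libraries of these cells after 48 h in conditioned medium, which is medium that other cells have grown in. Cancer-associated fibroblasts (CAFs) had conditioned the medium of 1 library, and 14837 cells had conditioned that of the other. Both were grown at 5% CO2 in DMEM with 10% serum, and no oxygen level is given. Of the value columns, CAF could be tied by name to the CAF-medium library and the other to no library. The media were therefore not compared, and each value below is a level in cells kept in CAF medium.

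HIF is a pair of proteins, an alpha subunit that is destroyed when oxygen is plentiful and the stable partner ARNT. In the presence of oxygen, prolyl hydroxylases of the EGLN family mark the alpha subunit, the VHL protein recognises the mark, and the subunit is degraded. A further oxygen-dependent enzyme, encoded by Hif1an, blocks the contact of HIF with its coactivators. When oxygen falls, HIF accumulates and binds short DNA motifs near its target genes, which serve collagen maturation, pH control, metabolism, signalling and the feedback on HIF itself. Pancreatic tumours are known for dense stroma and poor blood supply. Because HIF alpha is controlled largely as a protein, the RNA counts below do not measure HIF activity.

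The library held 21269197 counts, with 11569 entries at 10 counts or more and 8056 listed at 0. Levels are counts per 1000000 of the library total (CPM), followed in brackets by an exact Poisson 95% interval for counting error. For counting error alone, the one-sided 95% limit of a count of 0 is 3 counts, or 0.141 CPM. The two-sided interval used for the members ends at 3.69 counts, or 0.173 CPM. No replicate library was used, so nothing was tested between groups. Longer genes collect more counts, so levels of different genes are compared per kilobase of exon. Atp5a1 and Uqcrc1, genes of basic energy metabolism, were also listed at 0, so a member listed at 0 is not called unexpressed. Of 9 epithelial markers, Krt18, Krt8, Krt7, Krt19 and Cdh1 stood between 370 and 1819 CPM, and Muc1 at 60.3 CPM. Sox9, at 17.2 CPM, lay under the median gene, Epcam had 2 counts and Cldn4 was listed at 0. Of 10 fibroblast markers, Pdgfra had 727 counts, 5 were listed at 0 and the other 4 had 1 to 29 counts. No leukocyte or endothelial marker exceeded the median gene.

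The promoters of 6 members show the DNA motif through which HIF is known to act, at genes that were high and at genes that were near 0 in this library. RefSeq promoter windows (build GRCm38.p6), from 250 bases before to 50 bases after a transcription start, were available for 24 of the 32 members. The motif searched was ACGTG or GCGTG on either strand, and overlapping matches were merged. The first 3 windows belong to members above the median gene and the last 3 to members with 31 counts or fewer. Capitals mark the motif matches, and each sequence runs 5′ to 3′ on the strand of the gene.
P4ha1 chr10:59323046-59323345 (plus strand): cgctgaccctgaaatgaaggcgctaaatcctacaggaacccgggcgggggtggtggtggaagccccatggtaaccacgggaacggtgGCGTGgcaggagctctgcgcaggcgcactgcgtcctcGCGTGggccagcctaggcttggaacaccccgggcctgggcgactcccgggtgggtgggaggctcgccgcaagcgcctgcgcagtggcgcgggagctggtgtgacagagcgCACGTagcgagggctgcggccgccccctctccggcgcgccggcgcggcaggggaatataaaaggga
Hilpda chr6:29272376-29272675 (plus strand): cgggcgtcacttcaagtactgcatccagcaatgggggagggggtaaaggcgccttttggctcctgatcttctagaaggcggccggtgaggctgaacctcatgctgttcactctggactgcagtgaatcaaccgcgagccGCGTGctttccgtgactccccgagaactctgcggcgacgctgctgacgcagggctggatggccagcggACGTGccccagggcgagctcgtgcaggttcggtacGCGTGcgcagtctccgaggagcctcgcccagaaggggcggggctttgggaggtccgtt
Ddit4 chr10:59951721-59952020 (minus strand): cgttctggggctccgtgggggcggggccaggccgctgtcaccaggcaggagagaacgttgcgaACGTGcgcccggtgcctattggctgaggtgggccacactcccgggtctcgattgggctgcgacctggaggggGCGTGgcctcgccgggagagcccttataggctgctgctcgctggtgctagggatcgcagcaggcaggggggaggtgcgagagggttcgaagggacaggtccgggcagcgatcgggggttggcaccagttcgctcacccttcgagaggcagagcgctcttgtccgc
Car9 chr4:43506776-43507075 (plus strand): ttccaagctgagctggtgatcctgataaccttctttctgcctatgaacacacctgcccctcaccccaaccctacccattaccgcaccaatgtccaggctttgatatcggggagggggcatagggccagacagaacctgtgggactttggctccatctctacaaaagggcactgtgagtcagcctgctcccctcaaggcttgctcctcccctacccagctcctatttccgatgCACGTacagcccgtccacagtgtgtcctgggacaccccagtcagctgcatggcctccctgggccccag
Adm chr7:110627407-110627706 (plus strand): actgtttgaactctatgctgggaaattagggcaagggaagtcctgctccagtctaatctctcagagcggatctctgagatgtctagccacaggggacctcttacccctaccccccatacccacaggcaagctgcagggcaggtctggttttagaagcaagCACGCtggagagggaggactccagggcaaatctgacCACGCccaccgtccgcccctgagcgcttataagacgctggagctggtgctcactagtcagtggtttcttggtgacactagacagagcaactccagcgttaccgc
Ankrd37 chr8:45999801-46000100 (minus strand): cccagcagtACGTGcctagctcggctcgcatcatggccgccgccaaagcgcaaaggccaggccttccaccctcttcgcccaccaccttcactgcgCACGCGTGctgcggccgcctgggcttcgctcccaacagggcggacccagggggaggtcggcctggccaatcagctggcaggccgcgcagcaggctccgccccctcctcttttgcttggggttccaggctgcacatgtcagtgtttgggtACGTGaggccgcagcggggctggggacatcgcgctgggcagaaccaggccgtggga

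At least 1 match lay in a window of 21 of the 24 members (87.5%), against 68.4% of the 9133 genes with a window and at least 10 counts, and 46.7% of all 27025 genes with a window. With ACGTG alone, the form in the Car9 window, 15 of 24 members (62.5%) had a match, against 29.6% of the genes with at least 10 counts. The search for that form alone was chosen after the data were seen. The 24 members include Hif3a, Ppp1r3c, Rora and Ankrd37, which had under 10 counts, so those shares rest on unlike minimums. With either form, target genes had a match in 15 of 16 cases and HIF subunits, sensors and Vhl in 6 of 8. The windows of Vhl, Hif1an and Car12 held none. A match is a string of letters and not a bound site, and these members include genes known as HIF targets, so the shares are given as a description. Overlapping windows of Hilpda share 1 match, so the 49 matches in 28 windows lie at 48 positions. Of the 49, 20 began within 100 bases before the start, 24 farther before it and 5 after it. Only 3 lay within CACGTG, a motif that MYC and related factors also bind. A match was present in 11 of 13 members above the median gene and in 10 of 11 members that were not.

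**Figure D1:**
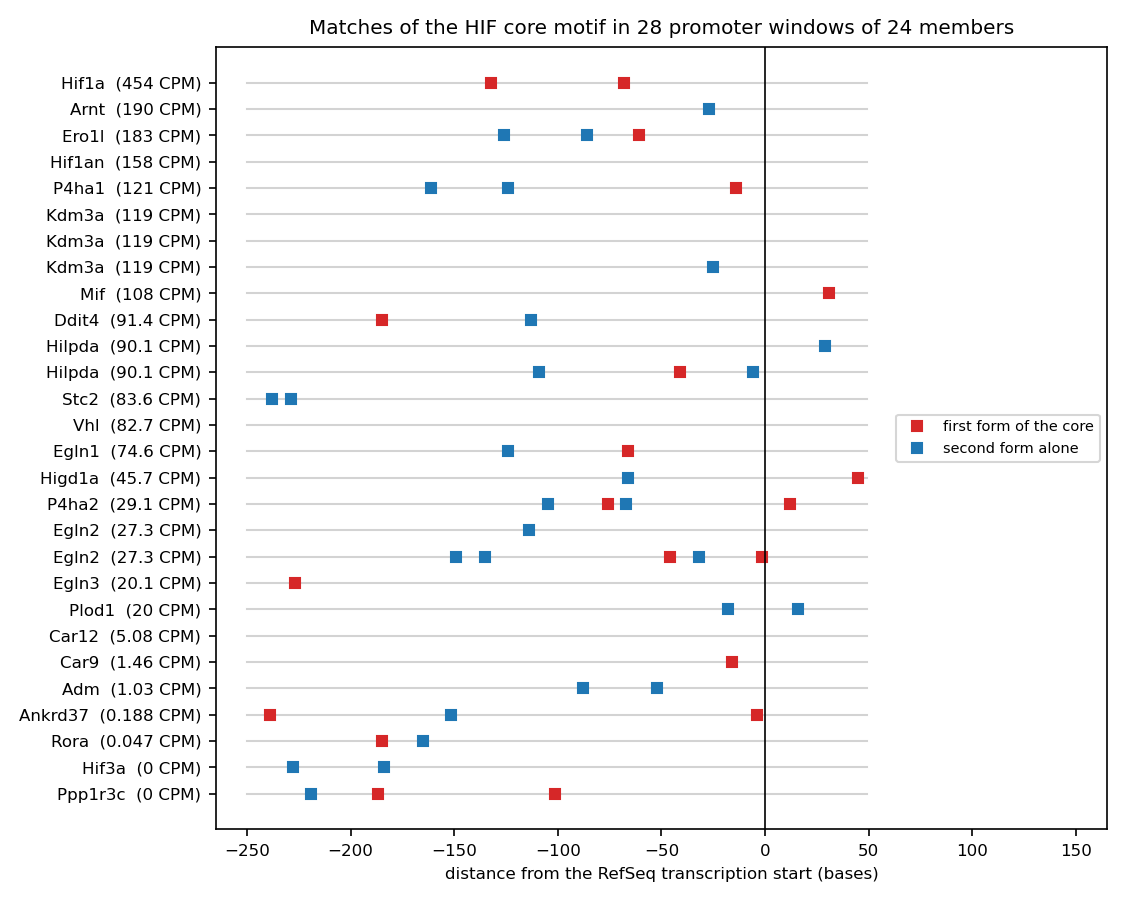
Matches of ACGTG or GCGTG (either strand) in 28 RefSeq promoter windows of 24 members, by distance from the transcription start in bases. Rows run from the highest level in CPM at the top to members listed at 0 at the bottom, red squares hold ACGTG (the first form) and blue squares only GCGTG (the second); matches occur in the upper and the lower rows.

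As a group, the members ranged from percentile 97.7 of genes with at least 10 counts, for Ndrg1, to genes listed at 0. Of the 32 members with a row, 27 had at least 10 counts, beside 52.6% of all entries. Ankrd37 and Rora had 4 and 1, and Hif3a, Lox and Ppp1r3c were listed at 0. The 27 had a median of 82.7 CPM, beside 37.9 CPM for all genes with at least 10 counts. The median gene was exceeded by 18 of the 27, as it is by 49.96% of all such genes, and 10 exceeded the upper quartile of 95.7 CPM. Epas1, Car12, Car9 and Adm lay under the lower quartile of 11.3 CPM. Per kilobase of exon, 19 of 27 exceeded the median gene, and the medians were 20.6 CPM per kilobase for the members and 8.14 for all genes. Together the members held 58336 counts, or 0.274% of the library, and Ndrg1 with Hif1a made up 34.2% of that sum.

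**Figure D2:**
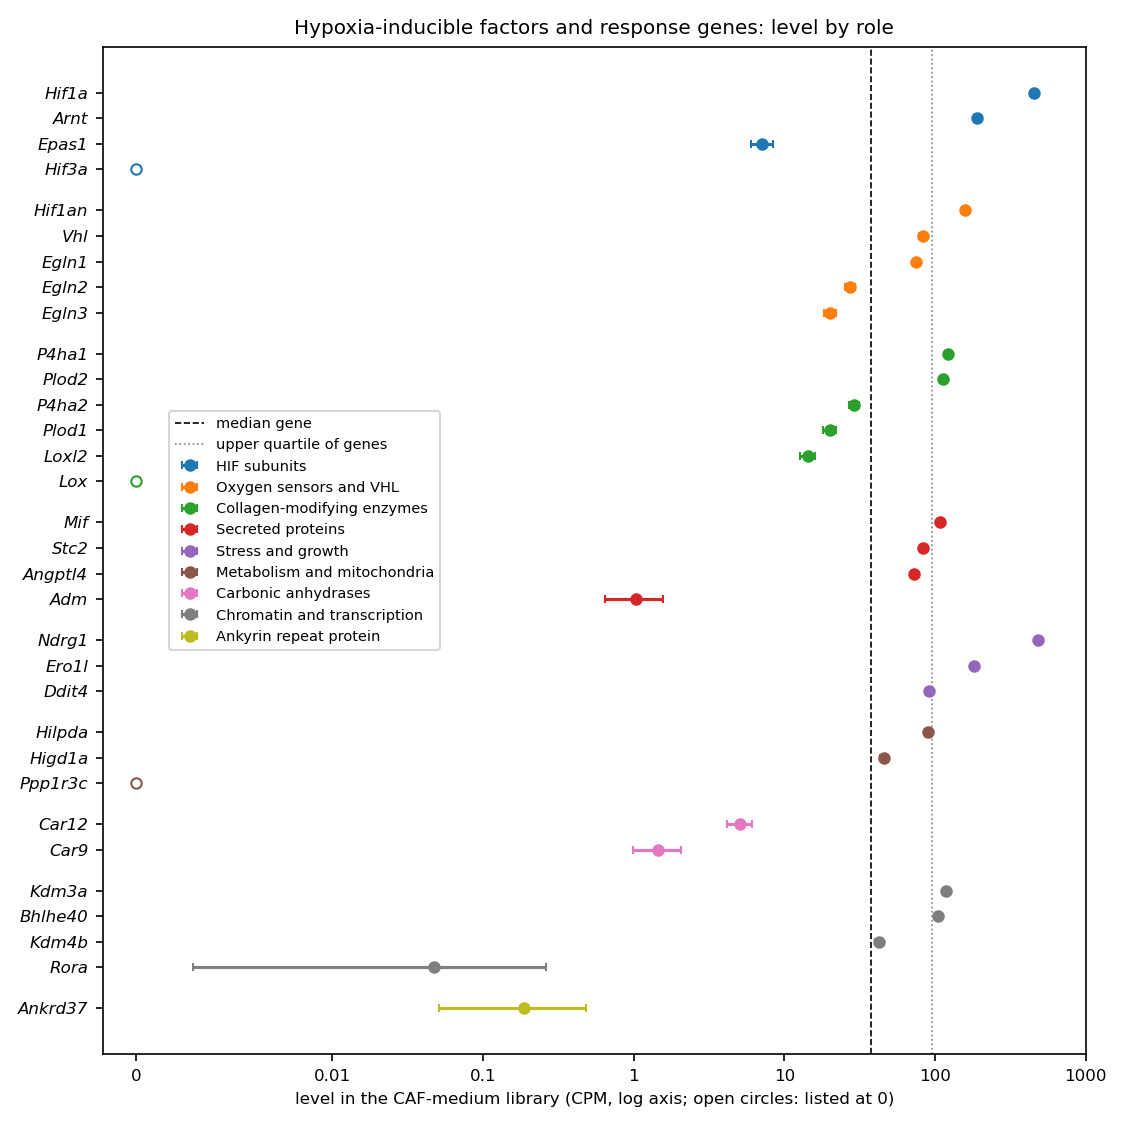
Level of each of the 32 members in the CAF-medium library in CPM (log axis), grouped by role, with exact Poisson 95% intervals. Open circles are members listed at 0; the dashed line is the median gene (37.9 CPM) and the dotted line the upper quartile (95.7 CPM). Ndrg1 and Hif1a stand farthest right, and Hif3a, Lox and Ppp1r3c at 0.

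Among the HIF subunits, Hif1a RNA exceeded that of Epas1 by a wide margin. Hif1a (chromosome 12, 73901375 to 73947530, plus strand, mm10), which encodes the widely expressed alpha subunit, collected 9650 counts (454 CPM, interval 445 to 463), and stood at percentile 97.4 of genes with at least 10 counts. Epas1 (chromosome 17, 86753700 to 86833410, plus strand), which encodes HIF-2 alpha, the subunit prominent in endothelium, collected 152 counts (7.15 CPM, interval 6.06 to 8.38). Per kilobase of exon Hif1a was 60.2 times Epas1 (51.3 to 71.1). Hif3a, whose product can restrain the other alpha subunits, was listed at 0. Arnt (chromosome 3, 95434388 to 95497240, plus strand), the shared partner, collected 4051 counts (190.5 CPM, interval 185 to 196). Hif1a was 3.24 times Arnt per kilobase (3.12 to 3.36), and Arnt was 18.6 times Epas1 (15.8 to 22.0), pairs chosen after the values were seen. Of the exonic bases of Hif1a, 8.11% lay under Gm15283, a gene on the opposite strand, and the strand setting of the counting is not given in the sources used here.

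All 5 genes that sense oxygen or remove HIF alpha had at least 10 counts, beside 52.6% of all entries. Hif1an, Vhl and Egln1 exceeded the median gene in CPM, beside 49.96% of all genes with at least 10 counts. Egln2 did so per kilobase of exon, at percentile 55.2, but not in CPM, at percentile 41.7. Hif1an, the asparaginyl hydroxylase gene (chromosome 19, 44562850 to 44576274, plus strand), collected 3361 counts (158 CPM, interval 153 to 163). Vhl, the recognition subunit of the ubiquitin ligase (chromosome 6, 113623959 to 113631633, plus strand), collected 1760 counts (82.7 CPM, interval 78.9 to 86.7). The prolyl hydroxylases followed the order Egln1, Egln2, Egln3 per kilobase of exon. Egln1, the main oxygen sensor in most cells (chromosome 8, 124908587 to 124949324, minus strand), had 1586 counts, or 20.7 CPM per kilobase. Egln2 (chromosome 7, 27158658 to 27166802, minus strand) had 581 counts, or 9.76 CPM per kilobase. Egln3, which is itself a well-known HIF target (chromosome 12, 54178981 to 54203860, minus strand), had 427 counts, or 7.54 CPM per kilobase. Egln1 was 2.13 times Egln2 (1.93 to 2.34) and 2.75 times Egln3 (2.47 to 3.07). Egln2 was 1.29 times Egln3 (1.14 to 1.47), but 0.776 times per kilobase of coding sequence, so which of them is higher changes with the length used. Hif1an was 1.15 times Egln1 per kilobase of exon (1.09 to 1.22), but 2.43 times per kilobase of coding sequence (2.29 to 2.58). The pairs Egln2 over Egln3 and Hif1an over Egln1 were chosen after the values were seen.

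Among the collagen-modifying enzymes, the prolyl 4-hydroxylase pair and the lysyl hydroxylase pair were each split. P4ha1 and P4ha2 encode catalytic subunits of collagen prolyl 4-hydroxylase, which stabilises the collagen triple helix. P4ha1 (chromosome 10, 59323296 to 59373304, plus strand) collected 2579 counts (121 CPM, interval 117 to 126), and P4ha2 (chromosome 11, 54100095 to 54131665, plus strand) collected 618 counts (29.1 CPM, interval 26.8 to 31.4). Per kilobase of exon P4ha1 was 6.33 times P4ha2 (5.79 to 6.92), and 3.16 times per kilobase of the longest transcript. The lysyl hydroxylases, which prepare collagen for cross-linking, ran the other way in number. Plod1 (chromosome 4, 147909753 to 147936767, minus strand) collected 426 counts (20.03 CPM, interval 18.2 to 22.02), and Plod2 (chromosome 9, 92542223 to 92608428, plus strand) collected 2390 counts (112 CPM, interval 108 to 117). Plod1 was thus 0.142 times Plod2 per kilobase (0.128 to 0.158). Lysyl oxidases form the cross-links. Loxl2 (chromosome 14, 69609068 to 69695834, plus strand) collected 304 counts (14.3 CPM, interval 12.7 to 15.99), but 44.7% of its transcript was also found in another gene, mainly Gm21451, so its count is uncertain. Lox (chromosome 18, 52516067 to 52529867, minus strand) was listed at 0. No ratio of these genes is given, since a listed 0 is not read here as a low level.

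Across the 4 choices of length (all exons, longest transcript, coding sequence, none), the interval excluded 1 each time for 6 of the 7 planned pairs with counts in both genes. The exception was Car12 over Car9.

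**Figure D3:**
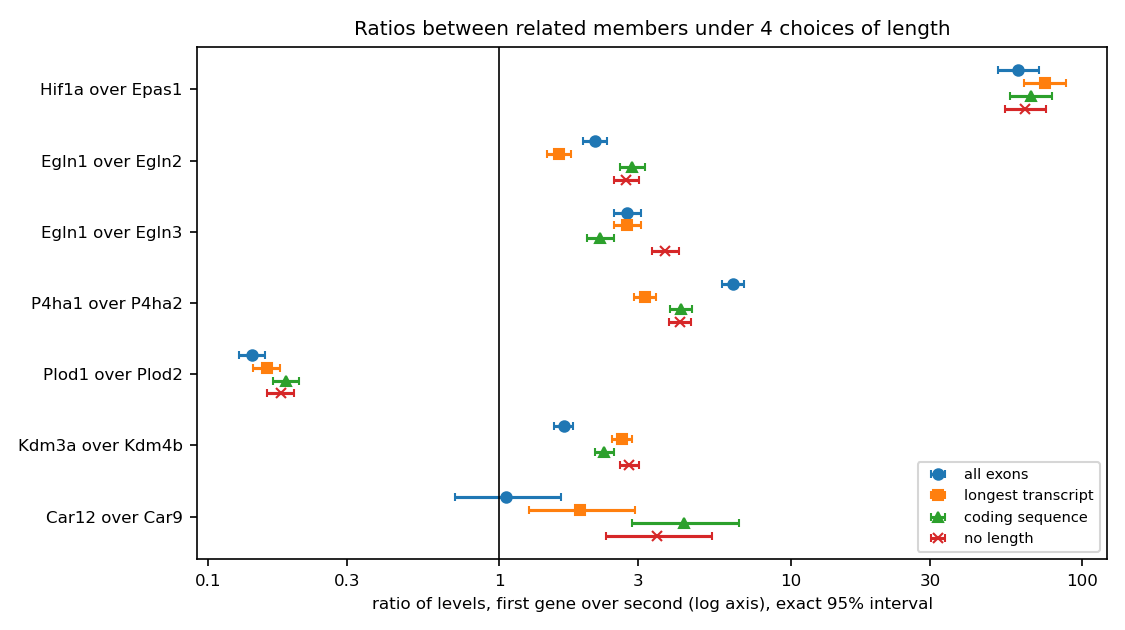
Ratios between related members (first gene over second, log axis) under 4 choices of length, with exact 95% intervals for counting error. Hif1a over Epas1 lies near 60 to 74, Plod1 over Plod2 below 1, and the interval of Car12 over Car9 spans 1 per kilobase of all exons.

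Secreted products ranged from high to near 0. Mif, a cytokine (chromosome 10, 75859353 to 75860240, minus strand), collected 2307 counts (108 CPM, interval 104 to 113). Its gene is short, and at 146 CPM per kilobase of exon it was the highest member by that measure, although 29.4% of its transcript was also found in other genes, mainly Gm10169. Stc2, a secreted glycoprotein of the stanniocalcin family (chromosome 11, 31357307 to 31370074, minus strand), collected 1778 counts (83.6 CPM, interval 79.8 to 87.6). Angptl4, an inhibitor of lipoprotein lipase (chromosome 17, 33773750 to 33781830, minus strand), collected 1549 counts (72.8 CPM, interval 69.2 to 76.5). Adm, which encodes the vasodilator peptide adrenomedullin (chromosome 7, 110627661 to 110629820, plus strand), collected 22 counts (1.03 CPM, interval 0.648 to 1.57). Adm lay at percentile 5.45 of genes with at least 10 counts, and at percentile 10.1 per kilobase of exon.

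The 3 stress and growth genes were all above the median gene. Ndrg1, a widely used hypoxia marker (chromosome 15, 66929318 to 66969640, minus strand), had 10278 counts, the most of any member, or 483 CPM (474 to 493). Exons of Gm17035, on the opposite strand, overlapped 8.43% of its exonic bases. Ero1l, which encodes an oxidase that drives disulfide bond formation in the endoplasmic reticulum (chromosome 14, 45283087 to 45318771, minus strand), collected 3888 counts (183 CPM, interval 177 to 189). Ddit4, an inhibitor of the growth kinase mTORC1 (chromosome 10, 59949669 to 59951834, minus strand), collected 1943 counts (91.4 CPM, interval 87.3 to 95.5). Per kilobase of exon these stood at 73.3, 34.6 and 52.1 CPM for Ndrg1, Ero1l and Ddit4.

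Of the metabolic and mitochondrial members, Hilpda was high for its length. Hilpda, whose product inhibits lipid droplet breakdown (chromosome 6, 29272488 to 29275446, plus strand), collected 1916 counts (90.1 CPM, interval 86.1 to 94.2). It has 1103 exonic bases, which gave 81.7 CPM per kilobase, above the 77.0 of Hif1a and below only the 146 of Mif among the members. Per kilobase of the longest transcript, Hilpda stood at 91.7 CPM, below Hif1a at 96.0 and Ndrg1 at 119. Higd1a, which encodes a protein of the inner mitochondrial membrane (chromosome 9, 121848563 to 121858362, minus strand), collected 972 counts (45.7 CPM, interval 42.9 to 48.7). Exons of Gm47112 on the opposite strand overlapped 22.5% of its exonic bases. Ppp1r3c, which targets a phosphatase to glycogen (chromosome 19, 36731731 to 36736653, minus strand), was listed at 0.

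The carbonic anhydrases Car9 and Car12, surface enzymes that help tumour cells manage acid and that are widely used as hypoxia markers, were both low. Car9 (chromosome 4, 43506966 to 43513729, plus strand) collected 31 counts (1.46 CPM, interval 0.99 to 2.07). Exons of other genes, mainly Gm12454 on the opposite strand, overlapped 9.29% of the exonic bases of Car9. Car12 (chromosome 9, 66713686 to 66766845, plus strand) collected 108 counts (5.08 CPM, interval 4.17 to 6.13). Car12 was 1.06 times Car9 per kilobase of exon, with an interval of 0.703 to 1.63 that includes 1, so at this depth no order between them was detectable on that scale. Per kilobase of the longest transcript the ratio was 1.9 (1.26 to 2.93). The promoter window of Car9 printed above holds the motif 18 bases before the start, and that of Car12 holds none.

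Chromatin and transcription members were mostly above the median gene. Kdm3a, a histone demethylase (chromosome 6, 71588972 to 71632990, minus strand), collected 2532 counts (119 CPM, interval 114 to 124). Kdm4b, another histone demethylase (chromosome 17, 56326062 to 56402870, plus strand), collected 906 counts (42.6 CPM, interval 39.9 to 45.5). Kdm3a was 1.66 times Kdm4b per kilobase of exon (1.54 to 1.8), and Kdm4b fell below the median gene per kilobase of the longest transcript, at percentile 45.0. Bhlhe40, a transcriptional repressor linked to circadian rhythm (chromosome 6, 108660629 to 108666925, plus strand), collected 2216 counts (104 CPM, interval 99.9 to 109). Rora, a nuclear receptor of the clock (chromosome 9, 68653786 to 69388246, plus strand), had 1 count. Ankrd37, an ankyrin repeat protein gene known as a HIF target (chromosome 8, 45996902 to 46005707, minus strand), had 4 counts, although its promoter window holds 3 matches of the motif. Exons of other genes, mainly Lrp2bp on the opposite strand, overlapped 26.4% of the exonic bases of Ankrd37.

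**Figure D4:**
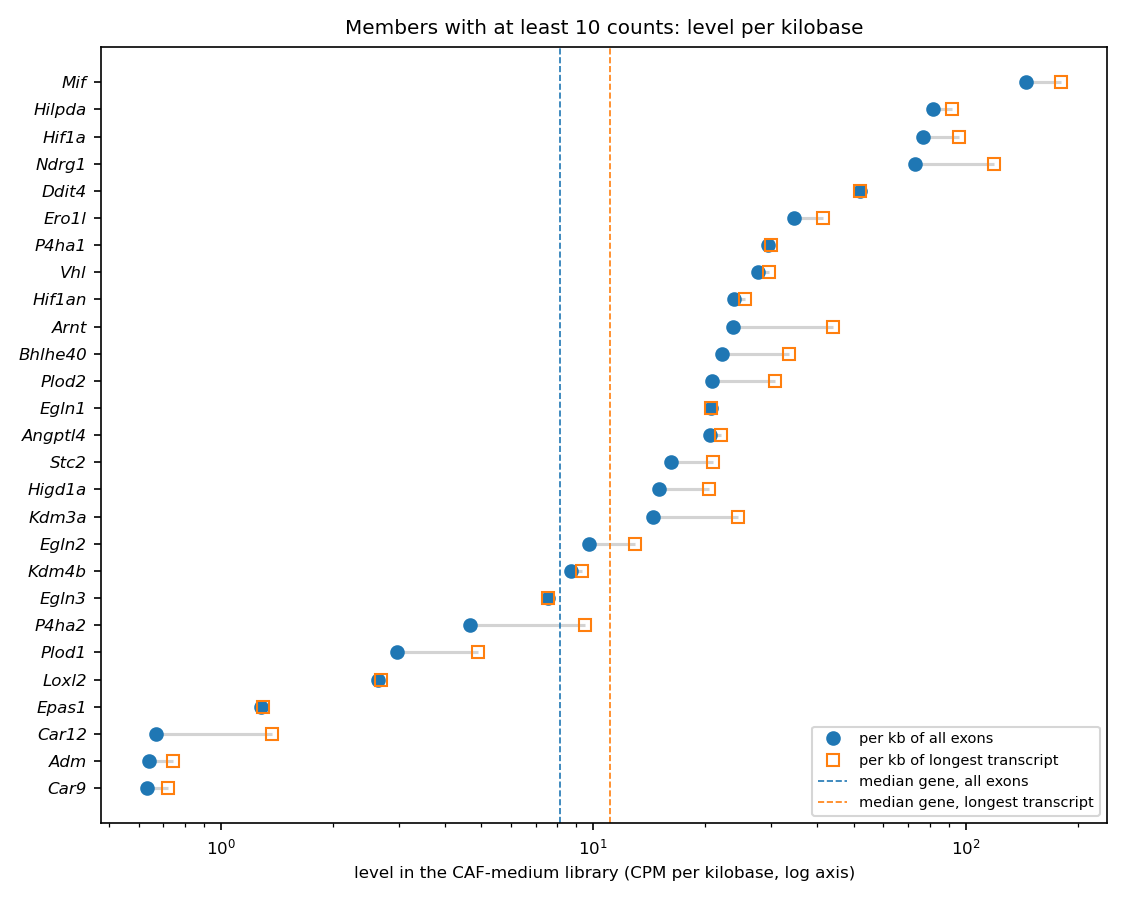
Level per kilobase (log axis) of the 27 members with at least 10 counts, divided by the length of all exons (filled circles) or of the longest transcript (open squares). Dashed lines are the median genes on each scale (8.14 and 11.1 CPM per kilobase). Mif, Hilpda, Hif1a and Ndrg1 are at the top on both scales, and Adm, Car9, Car12 and Epas1 at the bottom.

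Other genes of the pathway were described from lists chosen with earlier results of this library known, and no test of the lists was made. Of 13 partners of HIF and VHL, 12 had at least 10 counts, beside 52.6% of all entries. The median gene was exceeded by 10 in CPM and by 10 per kilobase of exon. Of all genes with at least 10 counts, 49.96% exceed it in CPM. Hsp90aa1, a chaperone that holds HIF alpha, had the most counts, at 944 CPM or 240.2 CPM per kilobase of exon, with 55.0% of its transcript shared with other genes. The coactivator Ep300 stood at 406 CPM, but at 28.4 CPM per kilobase. Elob and Eloc, which join VHL to its ligase, stood at 131 and 47.5 CPM per kilobase, with 27.3% of Elob shared. The scaffold of that ligase, Cul2, stood at 19.95 CPM per kilobase, and Cited2, which competes with HIF for coactivators, at 38.98. Arnt2, the paralog of Arnt, was listed at 0.

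Of 21 glycolytic genes known as HIF targets, all had at least 10 counts, beside 52.6% of all entries. The median gene was exceeded by 14 in CPM and by 12 per kilobase of exon, beside 49.96% of all genes with at least 10 counts in CPM. The median was 82.7 CPM for the members and 96.5 CPM for these targets. Ldha, Tpi1, Aldoa, Slc16a3 and Eno1 had the most counts and stood at 169, 174, 131, 54.6 and 48.5 CPM per kilobase of exon, with 69.1% of the transcript of Eno1 shared. Pdk1, the kinase that closes pyruvate entry into mitochondria, stood at 1.72 CPM per kilobase, and the glucose transporter gene Slc2a3 had 10 counts. Gapdh, usually among the most abundant genes of a cell, had only 425 counts, with 23.8% of its transcript shared with other genes. The part that shared sequence plays in such counts was not tested. Among 16 other HIF targets, 13 had at least 10 counts, 9 exceeded the median gene in CPM and 11 did so per kilobase of exon. Vegfa, the main angiogenic factor, had the most counts, at 669 CPM or 156 CPM per kilobase. The transferrin receptor gene Tfrc and Ccng2 stood at 38.9 and 38.6 CPM per kilobase. Edn1 had 7 counts, and Epo and Cxcr4 were listed at 0.

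**Figure D5:**
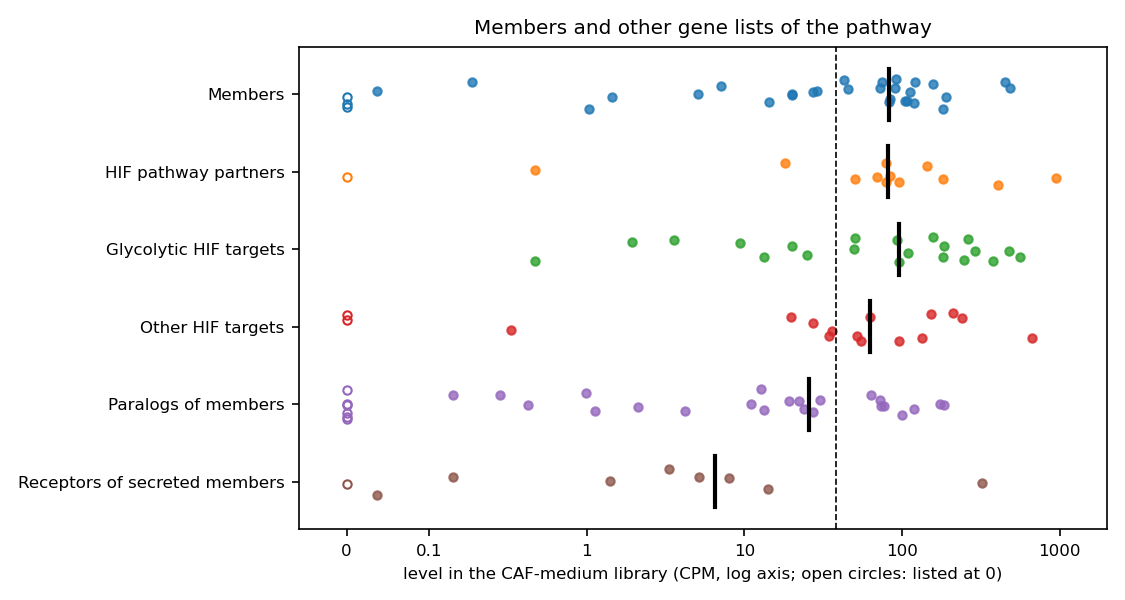
Level in CPM (log axis) of the members and of 5 other lists of pathway genes, each point a gene; open circles are genes listed at 0. Black bars are the medians of genes with at least 10 counts (82.7 CPM for the members, 96.5 for glycolytic targets) and the dashed line is the median gene.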

How the data were processed

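The authors deposited whole-number counts per gene symbol, which were not scaled to a fixed total. HISAT2 2.1.0, StringTie and mm10 are named in the submitters' processing notes, with no role for each. The sources used here do not give the counting method, its annotation and strand setting, or what was done with reads that match several places. CAF was tied to its library by the sample title, and 1 of the 2 value columns matched no label and was not used, so the planned comparison of media was not made. Of values from 10 to 299 counts, 35.6% were multiples of 3, beside 33.3% if every remainder were equally common, and whether all values are plain read tallies was not tested.

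Each count was divided by 21269197 and multiplied by 1000000. The Poisson and binomial 95% intervals are exact and cover counting error only, since copies of 1 molecule can be counted more than once. GENCODE M21 (GRCm38, the same assembly as mm10) matched 21900 symbols (99.6%) and gave positions and lengths. The 4 entries under duplicated names were left out of the background. The shared part of a transcript is the percentage of its 64-base windows, at steps of 16 bases, that occur exactly in a transcript of a gene elsewhere in the genome. Exons of other genes overlapped more than 5% of the exonic bases of 7 members, among them Plod2 at 6.42% and Loxl2 at 5.70%. Promoter sequences are from RefSeq (GRCm38.p6), where Ero1l was matched by its synonym.

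The members and lists were chosen with earlier results of these data known. All members are named. From each other list, up to 5 of the highest genes and those at 0 are named, apart from an item not reported here, and any others were picked once their values were known. The alternatives tried were other scalings, minimums, gene lengths and backgrounds. The intervals were tried on simulated Poisson counts, which hold counting error only, so their fit to wider scatter was not tested. The software was Python 3.11.15 with scipy 1.17.1, numpy 2.4.6, matplotlib 3.10.9 and pandas 2.3.3.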

Additional observations from a re-analysis of the deposited data

How the results depend on the processing

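Depth limited the members with few counts, and no replicate error was available. Of the 27 members with at least 10 counts, 18 exceeded the median gene, beside 49.96% of all such genes. With a minimum of 100 counts, 16 of 25 did so. It was 18 of 27 with protein-coding genes as the background, and 17 of 25 with genes sharing little sequence. Per kilobase of exon it was 19 of 27, and per kilobase of the longest transcript 18 of 27. With Ak4 counted in place of Ak4l it was 18 of 28, and without members that share sequence or exons 16 of 24. With no minimum 27 of 32 exceeded the median entry, since that entry is then much lower. The median of the members, 82.7 CPM, came to 59.3 CPM with no minimum, 78.7 CPM both without the highest member and with Ak4, and 83.6 CPM with a minimum of 100 counts. Leaving mitochondrial-genome genes out of the total kept all 32 levels within their intervals, and leaving out the 100 highest genes raised every level above 0 by 1.16 times.

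Ratios between related members moved with the length used, as the gene lengths themselves differ. Per kilobase of the longest transcript they were 74.1 for Hif1a over Epas1, 1.6 for Egln1 over Egln2, 3.16 for P4ha1 over P4ha2, 0.159 for Plod1 over Plod2, 2.64 for Kdm3a over Kdm4b and 1.9 for Car12 over Car9. Per kilobase of coding sequence they were 2.86 for Egln1 over Egln2, 2.22 for Egln1 over Egln3, 4.2 for P4ha1 over P4ha2, 0.186 for Plod1 over Plod2, 2.29 for Kdm3a over Kdm4b and 4.3 for Car12 over Car9. With no length they were 2.73, 3.71, 4.17, 0.178, 2.79 and 3.48 for the same pairs. The ratio of each of the 7 planned pairs with counts in both genes stayed on the same side of 1. For Car12 over Car9 the interval included 1 per kilobase of exon, so no order was detectable on that scale. No ratio was formed for Loxl2 over Lox, since Lox was listed at 0. The settings with Ak4, without sharing members and the single motif were chosen after seeing the data. The planned description of protein sequences and the fold between media were not run. No paired analysis was possible because only 1 library could be used.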

Other observations

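Relatives of the members gave further contrasts. Of 29 paralogs with a row, 20 had at least 10 counts, beside 52.6% of all entries. Of those 20, 8 exceeded the median gene in CPM and 10 did so per kilobase of exon. Of all genes with at least 10 counts, 49.96% exceed it in CPM. P4ha3, Loxl1, Stc1, Ddit4l and Ppp1r3d were listed at 0. Those with the most counts were Kdm4a at 186 CPM, Bhlhe41, the paralog of Bhlhe40, at 174 CPM, Kdm3b at 120 CPM and the lysyl hydroxylase gene Plod3 at 99.8 CPM. These came to 32.1, 25.8, 8.51 and 22.1 CPM per kilobase of exon. Exons of other genes, mainly on the opposite strand, overlapped 19.0%, 24.6% and 11.9% of the exonic bases of Bhlhe41, Kdm3b and Plod3. Loxl2 had 304 counts, fewer than the 1362 of Loxl4, with 2.64 CPM per kilobase of exon for Loxl2 and 15.2 for Loxl4. The Loxl2 count is uncertain, since 44.7% of its transcript was also found in another gene. Car12 and Car9 stood at 0.668 and 0.633 CPM per kilobase of exon, beside 31.99 for the cytosolic carbonic anhydrase gene Car2, which had 1648 counts. The adenylate kinase gene Ak4 had 472 counts.

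Of 9 genes listed for receptors of the secreted members, 6 had at least 10 counts, beside 52.6% of all entries. Only Cd44, which takes part in MIF signalling, exceeded the median gene, at 324 CPM. Of all genes with at least 10 counts, 49.96% exceed it. Cd74, the receptor chain that binds MIF, had 71 counts and Cxcr2 had 1. The adrenomedullin receptor genes Calcrl, Ramp3 and Ramp2 had 169, 30 and 3 counts, and the related gene Ramp1 had 110.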
